A study of Mus musculus with 12 samples.

Results

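The genes described here encode 9 membrane proteins that are known substrates of gamma-secretase outside the APP and Notch families: Cx3cl1, Nrg1, Efnb2, Erbb4, Epha4, Dcc, Lrp1, Sorl1 and Cdh2. They were chosen by name from published knowledge of the enzyme, with earlier results of these data known. All 9 were found among the 21878 genes of each deposited table. RNA was sequenced from mouse hippocampus in 4 groups of 3 libraries. The groups were wild-type mice (WT) and mice labelled as conditional double knockouts (DKO), with Psen2 among the targeted genes, killed at 9 a.m. (Day) or at 9 p.m. (Night). What drives the Cre, which exons it removes, and how old and of which sex the mice were is not given in the sources used here. Labels do not tie libraries to individual mice, so the p-values here speak only to the spread between these samples, and that spread may be technical. In Night WT it was not only technical, since replicate 1 differed in sex from the other libraries.

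Gamma-secretase is a membrane protease whose catalytic subunit is a presenilin, such as Psen2. Its substrates are single-pass membrane proteins that first lose their ectodomain to a sheddase such as Adam10, after which gamma-secretase cuts the remaining stub within the membrane and can free an intracellular domain. In brain these substrates include adhesion molecules, guidance receptors, endocytic receptors and membrane-tethered ligands. RNA levels report on how much of each substrate's message was present and not on its cleavage.

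The label of the knockout was checked first on Psen2. It ranged from 1.47 to 3.64 FPKM in the 6 WT libraries and from 0.275 to 0.594 FPKM in the 6 DKO libraries, so the genotypes did not overlap. FPKM is fragments per kilobase of transcript, scaled to library size, a level per length that can be compared between genes. On the scale log2(FPKM + 1), which understates changes of low genes, Psen2 was lower in DKO by day, with a difference of -1.08 and an adjusted p of 0.00982 (limma, adjusted by Benjamini-Hochberg over the 12689 genes tested, 2-sided, called under 0.05). At night its difference was -1.57 (adjusted p = 0.000785, limma). Reads outside any removed exons would still count toward the gene, but the source of the level left in DKO was not tested.

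The 12 libraries were close in depth and correlated well, with departures in sex and in tissue makeup that touch the results. Deposited values summed to between 151059 and 175692 FPKM per library, and depth relative to 1 library, read from the steps between low values, ran from 0.91 to 1.05. The number of reads is unknown. Libraries of the same group correlated at r = 0.9898 to 0.9947 and those of different groups at r = 0.9816 to 0.9934. Markers of hippocampal neurons and glia were present in every group. Night WT replicate 1 had a summed level of 0.0308 FPKM over 4 Y-linked genes, against 14.1 to 18.1 FPKM in the other libraries, so it differed from them in sex. Choroid plexus, a tissue next to the hippocampus, contributed unequally. The summed level of its 16 markers was 1188 to 2934 FPKM in Day WT, 79.5 to 1890 in Day DKO, 1438 to 3315 in Night WT and 2017 to 3180 in Night DKO, with Day DKO replicate 2 the lowest.

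The substrates spanned a wide range of levels whose order was nearly fixed across libraries. Cx3cl1 was highest with a mean of 88.1 FPKM over the 12 libraries, followed by Epha4 at 39.8, Lrp1 at 28.6 and Sorl1 at 26.2 FPKM. These 4 lay at percentiles 97.9, 94.5, 91.8 and 90.9 of the mean levels of the genes tested. Cdh2 at 6.80 FPKM and Erbb4 at 3.91 FPKM lay near the middle of the genes tested. Dcc at 2.57, Efnb2 at 1.51 and Nrg1 at 0.482 FPKM were the lowest. Neighbours in this order had separate ranges over the 12 libraries except Lrp1 and Sorl1, of which Lrp1 was higher in 11 of 12. All 9 passed the filter on low values, 0.5 FPKM or more in at least 3 libraries, although Nrg1 reached that level in 5 libraries only. Within a gene the highest library was from 1.18 times the lowest for Erbb4 to 1.69 times for Nrg1.

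**Figure D1:**
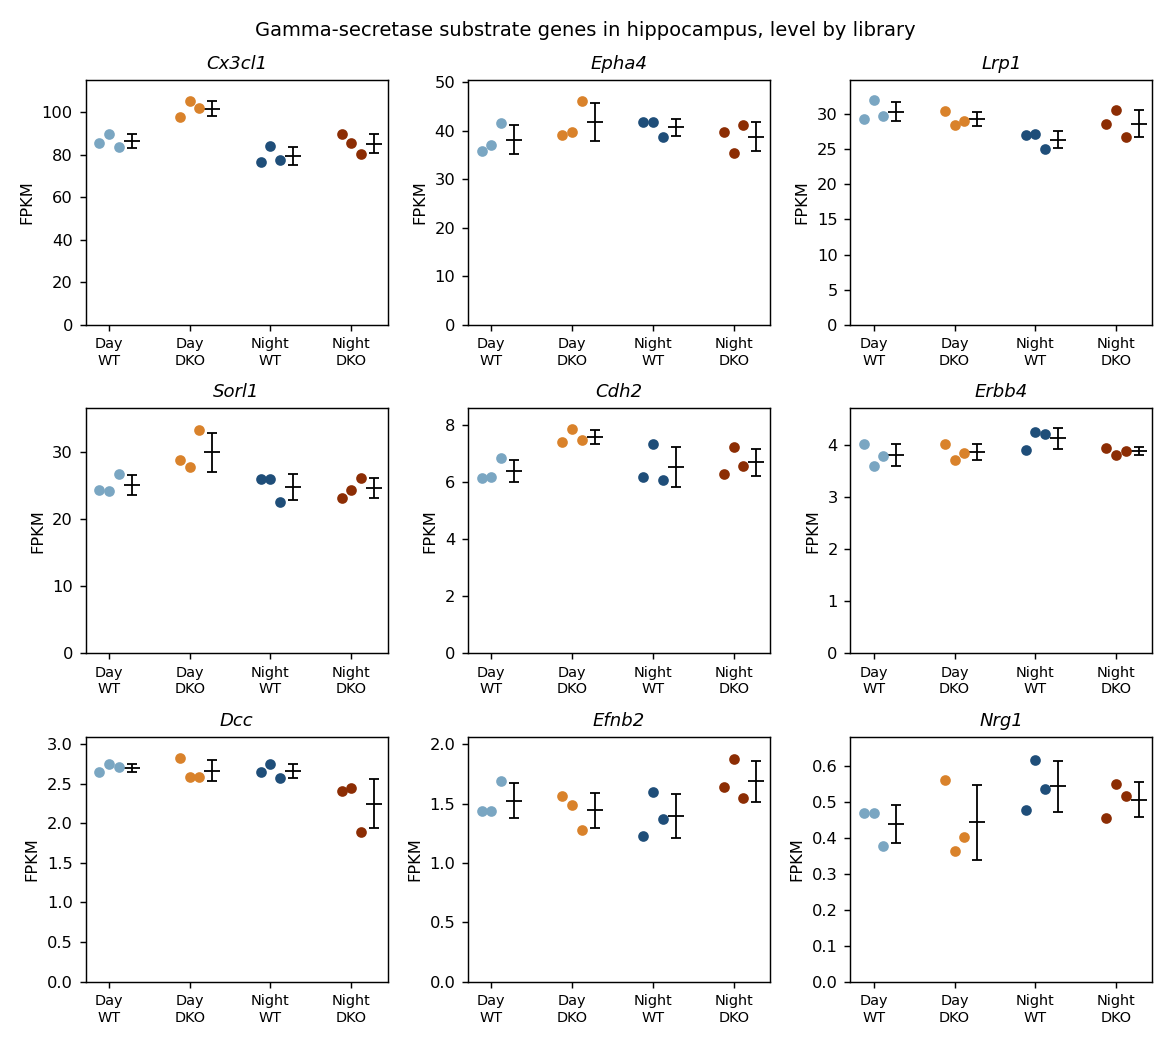
Level of each substrate gene in FPKM (linear axis from 0) in the 3 libraries of each group; points are libraries, and the black mark is the mean with its SD. The 3 Day DKO libraries of Cx3cl1, Sorl1 and Cdh2 lie above all 3 Day WT libraries, and Dcc is lowest in Night DKO.

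Over 7 comparisons, 1 difference among the 9 genes passed the test. Cx3cl1 was lower at night than by day when the genotypes were averaged, a difference of -0.19 (95% interval -0.28 to -0.09) with an adjusted p of 0.0309 in limma. In that comparison 6.07% of all genes tested were called. In the other comparisons none of the 9 genes was called by limma: the genotypes compared by day (1.18% of all genes called) or at night (0.0236%), the times compared within WT (1.67%) or within DKO (0.299%), the genotypes averaged over time (1.88%) and the interaction of genotype and time (0%). At an unadjusted p under 0.05 they numbered 3, 1, 1, 4, 2 and 1 in the same order. Among all genes tested 2161, 1165, 2827, 1915, 2055 and 1099 reached that p. In bulk tissue, fewer cells of a type and less RNA per cell cannot be told apart.

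The size of their differences was set beside all genes and beside the intervals. By day the median difference of the 9 genes was 0.02, beside 0.04 over all genes tested, and 6 of 9 were above 0. For night against day in DKO the median was -0.10, beside 0.02 over all genes, and 6 of 9 were below 0. In WT the same medians were -0.02 and 0.07, with 5 of 9 below 0. Averaged over genotype they were -0.07 and 0.05, with 6 of 9 below 0. The median half-width of a 95% interval within 1 time or 1 genotype was 0.16, and the intervals of the 4 direct comparisons lay between -0.44 and 0.42. On this scale the same width spans a larger relative change in a low gene. For night against day in WT, 0.10 for Nrg1 was a 23.9% difference of mean FPKM and -0.12 for Cx3cl1 one of -7.9%. Groups without overlap were counted as a second description. By day 3 of 9 genes had all DKO libraries above all WT libraries, against 14.3% of all genes, and in DKO 4 of 9 had all night libraries below all day libraries, against 6.44%. These 2 comparisons share the Day DKO libraries, and the genes come from the same libraries, so they are not separate observations.

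**Figure D2:**
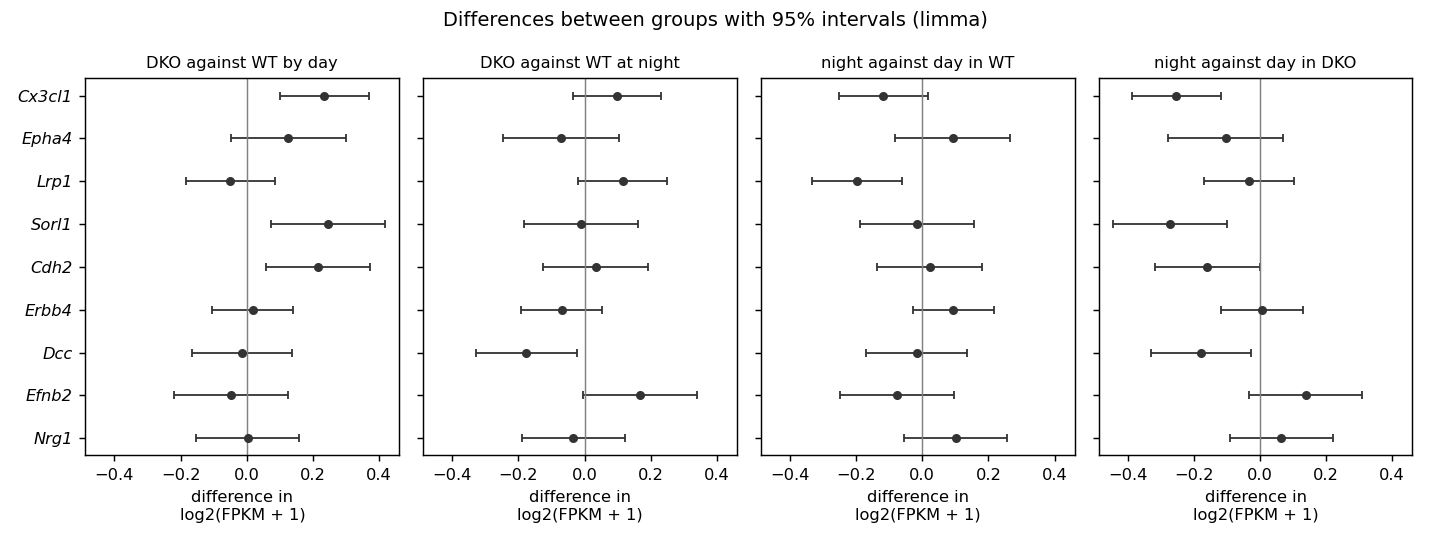
Difference in log2(FPKM + 1) for each substrate gene in the 4 direct comparisons, with 95% intervals from limma; the vertical line marks no difference. Cx3cl1, Sorl1 and Cdh2 lie above 0 by day (0.23, 0.25 and 0.21), and Cx3cl1, Sorl1, Cdh2 and Dcc lie below 0 for night against day in DKO (-0.25, -0.27, -0.16 and -0.18), none of them called.

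Among the ligands, Cx3cl1 (gene ID 20312, chromosome 8, 94772180 to 94782427, GRCm38.p6) encodes fractalkine, a neuronal chemokine that sits in the membrane on a stalk and signals to microglia through Cx3cr1. It stood at 85.5, 89.9 and 83.4 FPKM in Day WT and at 97.9, 105 and 102 FPKM in Day DKO. At night it stood at 76.8, 84.2 and 77.4 FPKM in WT and at 89.6, 85.4 and 80.4 FPKM in DKO. Day DKO was thus the highest group and overlapped no other, while Night WT was the lowest and overlapped both Day WT and Night DKO. By group the means were 86.3 ± 3.29 in Day WT, 101.6 ± 3.59 in Day DKO, 79.5 ± 4.11 in Night WT and 85.1 ± 4.60 FPKM in Night DKO (SD, n = 3).

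Of these differences, the time difference averaged over genotype was the one called. The night libraries averaged 82.3 FPKM and the day libraries 93.9 FPKM, although the 6 night and the 6 day libraries overlapped. Within genotypes Cx3cl1 was lower at night by a difference of -0.25 in DKO (adjusted p = 0.102) and -0.12 in WT (adjusted p = 0.279, limma), and the interaction of genotype and time was not called (-0.14, 95% interval -0.32 to 0.05, adjusted p = 0.656). The DKO against WT difference was 0.23 by day (95% interval 0.10 to 0.37, adjusted p = 0.0908) and 0.10 at night (95% interval -0.04 to 0.23, adjusted p = 0.673). Averaged over time it was 0.17 with an adjusted p of 0.0739 in limma.

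The call for Cx3cl1 lay close to the threshold. It was lost when the choroid plexus level was added as a covariate (-0.18, adjusted p = 0.0766, limma). It was also lost without any 1 of 7 libraries, namely Day WT replicates 1 and 2, Day DKO replicate 2, Night DKO replicates 2 and 3, and Night WT replicates 1 and 3, the last pair including the library that differs in sex. The adjusted p without these libraries ran from 0.0501 to 0.0722 in limma. Other tissue moved with time as well: averaged over genotype, the blood markers had a median night against day difference of 0.50 with 5 of 5 tested called, and the choroid plexus markers one of 0.52 with 16 of 16 above 0 (0 called by limma, 7 at an unadjusted p under 0.05). The part of blood in the level of Cx3cl1 was not tested. Leaving out 1 library at a time moved the difference only between -0.21 and -0.17. Scaling the libraries by median-of-ratios or by quantiles kept the call, with differences of -0.25 and -0.27.

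**Figure D3:**
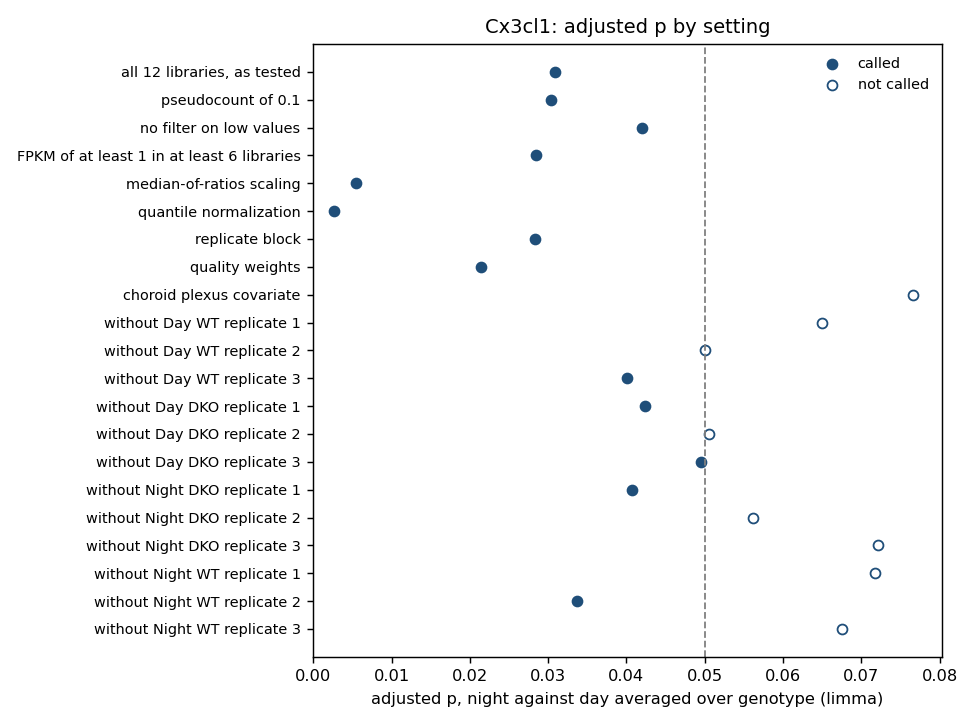
Adjusted p of Cx3cl1 for night against day averaged over genotype (limma) with all 12 libraries and under each alternative setting or left-out library; filled points are called, open points are not, and the dashed line marks 0.05. Removal of 7 of the 12 libraries, or adding the choroid plexus level, moves the point past the line, and both rescalings move it toward 0.

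The receptor of fractalkine, Cx3cr1, was the other arm of this signal and is a microglial gene. It averaged 5.25 ± 0.516 FPKM in Day WT, 6.30 ± 0.414 in Day DKO, 4.89 ± 0.417 in Night WT and 6.07 ± 1.06 FPKM in Night DKO (SD, n = 3). Its DKO against WT differences, 0.23 by day and 0.25 at night, were not called (adjusted p = 0.289 and 0.474, limma). The ratio of Cx3cl1 to Cx3cr1, chosen after the values were seen, was 16.5 ± 1.40 in Day WT, 16.2 ± 0.643 in Day DKO, 16.3 ± 0.707 in Night WT and 14.4 ± 3.43 in Night DKO (SD, n = 3). Over the microglial marker list of 10 genes, to which Cx3cr1 belongs, the median difference was 0.28 by day beside 0.04 over all genes tested, with 10 of 10 above 0 and 1 called. At night the list's median was 0.32, again with 10 of 10 above 0 (0 called by limma, 7 at an unadjusted p under 0.05). Averaged over time it was 0.30 with 5 of 10 called. Night DKO was uneven, with summed levels of this list of 112 to 213 FPKM, overlapping 107 to 121 in Night WT. Cx3cr1 was at 4.88 FPKM in Night DKO replicate 1, against 6.88 and 6.47 in replicates 2 and 3. The ratio of Cx3cl1 to Cx3cr1 in these libraries was 18.4, 12.4 and 12.4. The fractalkine list holds Cx3cr1, integrins that bind the ligand and the related chemokine Cxcl16, and 1 of its 5 tested genes was called in any comparison. Itgb1, an integrin beta subunit, rose at night averaged over genotype (0.18, adjusted p = 0.0421, limma), where 6.07% of all genes tested were called. It kept that call in 6 of 20 alternatives and lost it with both rescalings of the libraries.

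Nrg1 (gene ID 211323, chromosome 8, 31807452 to 32891609) encodes neuregulin 1, a growth factor that binds ErbB receptors. It was at 0.467, 0.468 and 0.377 FPKM in Day WT and at 0.560, 0.364 and 0.402 FPKM in Day DKO. At night it was at 0.476, 0.616 and 0.534 FPKM in WT and at 0.453, 0.548 and 0.515 FPKM in DKO. The 3 Night WT libraries lay just above the 3 Day WT libraries, as did those of 24.3% of all genes, and the difference of 0.10 was not called (adjusted p = 0.423, limma). One value per gene covers all its transcripts, and RefSeq lists 43 for Nrg1, so its isoforms were not separated.

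Its receptor Erbb4 (gene ID 13869, chromosome 1, 68031884 to 69108576) is a receptor tyrosine kinase found in hippocampal interneurons. It was the steadiest of the 9 genes, at 4.01, 3.59 and 3.79 FPKM in Day WT, 4.02, 3.70 and 3.85 in Day DKO, 3.89, 4.25 and 4.21 in Night WT and 3.94, 3.80 and 3.88 in Night DKO. The 4 groups overlapped, and its differences within 1 time or 1 genotype stayed between -0.07 and 0.09. Their 95% intervals lay between -0.19 and 0.22. In the list of other neuregulins, ErbB ligands, receptors and effectors, 10 of 19 genes were tested and limma called 0 in every comparison, while 0 to 4 of them had an unadjusted p under 0.05.

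Efnb2 (gene ID 13642, chromosome 8, 8617235 to 8661242) encodes ephrin-B2, a membrane ligand of Eph receptors that also signals back into its own cell. It was at 1.44, 1.44 and 1.69 FPKM in Day WT, 1.57, 1.49 and 1.28 in Day DKO, 1.23, 1.60 and 1.37 in Night WT and 1.64, 1.88 and 1.55 in Night DKO. The groups overlapped, with the highest mean in Night DKO. The DKO against WT difference was 0.17 at night (95% interval -0.0045 to 0.34, adjusted p = 0.558) and -0.05 by day (adjusted p = 0.800, limma).

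Epha4 (gene ID 13838, chromosome 1, 77367182 to 77515107) encodes an Eph receptor that binds ephrins of the A and B classes and acts at dendritic spines. Day WT libraries had 35.9, 37.1 and 41.5 FPKM, Day DKO 39.2, 39.8 and 46.2, Night WT 41.7, 41.7 and 38.7, and Night DKO 39.7, 35.4 and 41.1 FPKM. All groups overlapped. Its differences ran from 0.12 by day to -0.10 for night against day in DKO, with adjusted p of 0.448 and 0.595 in limma. Among 22 tested members of the list of other ephrins, Eph receptors and their effectors, 1 was called. The Eph receptor gene Epha8 rose at night averaged over genotype (0.24, adjusted p = 0.0388, limma), where 6.07% of all genes tested were called. Its call held in 6 of 19 alternatives and was lost with both rescalings of the libraries.

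Dcc (gene ID 13176, chromosome 18, 71253613 to 72351228) encodes the netrin receptor that guides axons and remains at adult synapses. Day WT libraries had 2.64, 2.75 and 2.70 FPKM, Day DKO 2.82, 2.59 and 2.59, Night WT 2.65, 2.75 and 2.57, and Night DKO 2.41, 2.44 and 1.89 FPKM. Night DKO lay below all other groups without overlap, and its lowest library, replicate 3, stood apart from the other two. Of all genes, 9.48% had every DKO library below every WT library at night. The difference at night was -0.18 (95% interval -0.33 to -0.02, adjusted p = 0.470) and that for night against day in DKO was -0.18 (adjusted p = 0.263, limma). Without Night DKO replicate 3 they were -0.09 and -0.10. In the netrin list, 1 of 19 tested genes was called, beside 6.07% of all genes tested in the same comparison. Unc5b, another netrin receptor, fell at night by 0.23 averaged over genotype (adjusted p = 0.0498, limma), a call kept in 10 of 20 alternatives.

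Lrp1 (gene ID 16971, chromosome 10, 127538157 to 127621148) encodes a large endocytic receptor that takes up apolipoprotein E, proteases and their inhibitors. Day WT libraries had 29.3, 31.9 and 29.7 FPKM, Day DKO 30.4, 28.4 and 29.0, Night WT 26.9, 27.1 and 25.0, and Night DKO 28.6, 30.6 and 26.7 FPKM. In WT all night libraries lay below all day libraries, as for 4.37% of all genes, whereas in DKO day and night overlapped. The time difference was -0.20 in WT (95% interval -0.33 to -0.06, adjusted p = 0.106), -0.03 in DKO (adjusted p = 0.867) and -0.11 averaged over genotype (adjusted p = 0.124, limma). The averaged difference was called after rescaling, at -0.17 by either method (adjusted p = 0.0418 with median-of-ratios and 0.0462 with quantiles, limma). The interaction of genotype and time for Lrp1 was 0.16 (95% interval -0.03 to 0.36) and was not called (adjusted p = 0.599).

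Partners of Lrp1 differed between the genotypes in 2 of 16 tested cases. By day 1.18% of all genes tested were called. Thbs1, a matricellular ligand, fell in DKO by day by 0.59 (adjusted p = 0.0161, limma), from 1.65 ± 0.215 FPKM in Day WT to 0.760 ± 0.171 in Day DKO (SD, n = 3). The endocytic adaptor Dab2 fell by 0.37 (adjusted p = 0.0319), from 1.50 ± 0.0322 to 0.938 ± 0.0646 FPKM (SD, n = 3). With the choroid plexus level as covariate neither call for Thbs1 or Dab2 by day held, and neither held without Day WT replicate 2, Day DKO replicate 2 or Day DKO replicate 3. Most calls over all genes were lost there too. The day count fell from 150 to 4 with that covariate, and to 13, 23 and 19 without these libraries in that order. The call for Dab2 was also lost without Day WT replicate 1 or 3 or Night WT replicate 3 and with only the groups compared, and both were lost with no filter on low values. In all, the day call held in 16 of 21 alternatives for Thbs1 and 12 of 21 for Dab2. Markers of mural cells and fibroblasts moved the same way by day, with a median of -0.61, 10 of 10 below 0 and 3 called, and summed levels of 44.2 to 61.7 FPKM in Day WT against 35.2 to 41.5 in Day DKO. Endothelial markers had a median of -0.26 with 7 of 8 below 0 (0 called by limma, 7 at an unadjusted p under 0.05). The part of these cells in the levels of Thbs1 and Dab2 was not tested. Averaged over genotype, 2 more were called at night: Calr, a chaperone, fell by 0.29 (adjusted p = 0.0215) and Apbb1, a cytoplasmic adaptor, rose by 0.17 (adjusted p = 0.0436, limma). The call held in 18 of 20 alternatives for Calr, not without Day WT replicate 1 or Night WT replicate 3, and in 6 of 20 for Apbb1. Apbb1 lost it with both rescalings of the libraries. In that comparison 6.07% of all genes tested were called.

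Sorl1 (gene ID 20660, chromosome 9, 41964709 to 42124297) encodes a sorting receptor of the VPS10 family that moves cargo, APP among them, between the Golgi and endosomes with the retromer. Day WT libraries had 24.4, 24.2 and 26.8 FPKM, Day DKO 28.8, 27.9 and 33.3, Night WT 25.9, 26.0 and 22.6, and Night DKO 23.2, 24.4 and 26.2 FPKM. Day DKO lay above every other group without overlap, and the other 3 groups overlapped with each other. The DKO against WT difference was 0.25 by day (95% interval 0.07 to 0.42, adjusted p = 0.153) and -0.01 at night (95% interval -0.18 to 0.16, adjusted p = 0.985, limma). Night against day differed by -0.27 in DKO (adjusted p = 0.157) and by -0.02 in WT (adjusted p = 0.929). The interaction, -0.26 (95% interval -0.50 to -0.01), had an unadjusted p of 0.0403 and an adjusted p of 0.563 in limma, so the time difference was not shown to depend on genotype.

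Close relatives of Sorl1 did pass the test. Sorcs3, a neuronal VPS10 receptor, was at 5.61, 5.42 and 5.44 FPKM in Day WT and at 7.98, 8.02 and 9.74 FPKM in Day DKO. At night it was at 5.75, 6.50 and 5.75 FPKM in WT and at 6.11, 7.29 and 6.57 FPKM in DKO. It rose in DKO by 0.56 by day (adjusted p = 0.0123) and by 0.34 averaged over time (adjusted p = 0.0146, limma), while the night difference of 0.13 was not called (adjusted p = 0.670). Its interaction of -0.43 was not called either (adjusted p = 0.477, limma), so the day and night differences were not shown to differ. Sorcs2, a further VPS10 receptor, rose by day from 4.95 ± 0.155 to 6.54 ± 0.499 FPKM (SD, n = 3), a difference of 0.34 with an adjusted p of 0.0340 in limma. Sorcs1 was not called, with a difference of -0.02 by day (adjusted p = 0.911). The day call for Sorcs3 held in 19 of 21 alternatives, not with the choroid plexus covariate nor without Day WT replicate 2, and that for Sorcs2 in 10 of 21. Over all genes tested, the covariate left 4 calls by day and the left-out library 13, in place of 150.

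Of the 16 genes of the list of Sorl1 relatives and retromer parts, these 2 were the ones called between genotypes. Of all genes tested, 1.18% were called by day and 1.88% averaged over time. The list's median difference by day was 0.08, beside 0.04 over all genes, with 12 of 16 above 0. For time, 6.07% of all genes tested were called averaged over genotype and 1.67% in WT, and Vps29 alone was called in this list. Vps29, a core retromer subunit, rose at night by 0.28 averaged over genotype (adjusted p = 0.00481) and by 0.30 in WT (adjusted p = 0.0361, limma). It stood at 11.1 ± 0.593 FPKM in Day WT and 14.0 ± 0.741 in Night WT, and at 11.5 ± 0.170 in Day DKO and 14.0 ± 0.649 in Night DKO (SD, n = 3). The averaged call for Vps29 held in all 20 alternatives run, and the call within WT in 11 of 21. The call within WT was lost when any 1 Night WT library was left out, including replicate 1, which differs in sex. Over all genes tested, the count for time in WT then fell from 212 to 1.

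**Figure D4:**
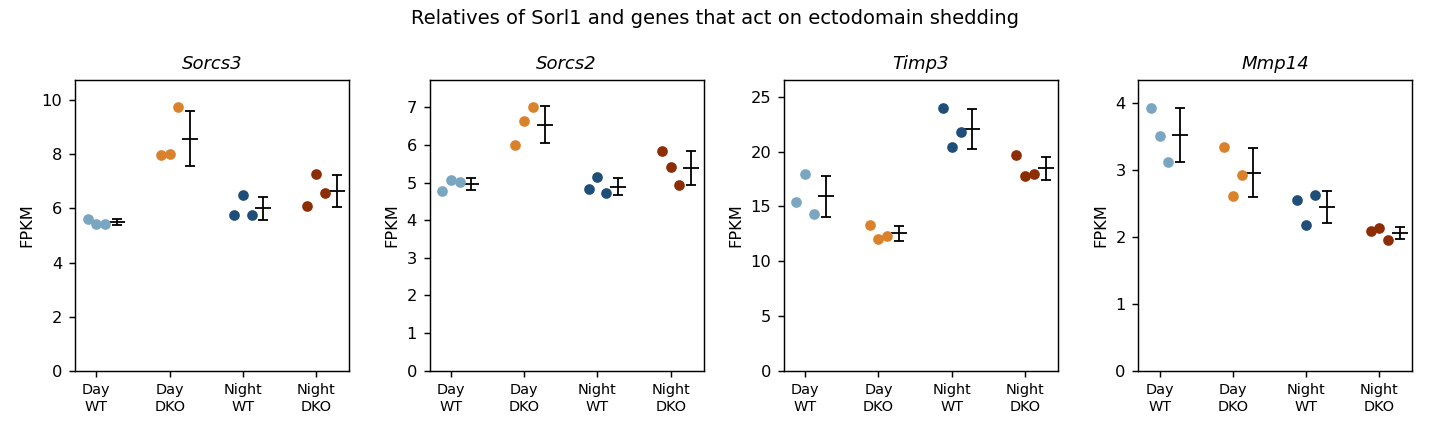
Level in FPKM (linear axis from 0) of Sorcs3, Sorcs2, Timp3 and Mmp14 in the 3 libraries of each group; points are libraries and the black mark is the mean with its SD. Sorcs3 is highest in Day DKO (7.98 to 9.74 FPKM), Timp3 is higher at night in each genotype and Mmp14 is lower.

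Cdh2 (gene ID 12558, chromosome 18, 16588877 to 16809246) encodes N-cadherin, the adhesion molecule that joins neurons across the synapse through catenins. Day WT libraries had 6.16, 6.20 and 6.85 FPKM, Day DKO 7.41, 7.86 and 7.49, Night WT 6.18, 7.34 and 6.08, and Night DKO 6.30, 7.23 and 6.56 FPKM. Day DKO again lay above every other group, by a narrow margin over Night WT replicate 2. The difference was 0.21 by day (95% interval 0.06 to 0.37, adjusted p = 0.166) and 0.03 at night (adjusted p = 0.936, limma). In the cadherin and catenin list, 1 of 16 tested genes was called, beside 6.07% of all genes tested in the same comparison. Ctnna2, a neuronal alpha-catenin, rose at night averaged over genotype by 0.13 (adjusted p = 0.0400, limma). The call was kept in 5 of 20 alternatives and lost with both rescalings of the libraries.

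Choroid plexus RNA moved with these results, since it was lowest in Day DKO. Its 16 markers had a median difference of -1.01 for DKO against WT by day and 0.97 for night against day in DKO, with 0 of 16 called by limma and 12 and 14 of 16 at an unadjusted p under 0.05. Over the 12 libraries the choroid plexus level, the mean log2(FPKM + 1) of its markers, had a Pearson r of -0.83 with Cdh2, -0.64 with Cx3cl1 and -0.49 with Sorl1 on the same scale, given as a description because the points share libraries. With that level as a covariate the day difference became 0.11 for Cdh2, 0.22 for Cx3cl1 and 0.26 for Sorl1. Without Day DKO replicate 2 it was 0.19 for Cdh2, 0.21 for Cx3cl1 and 0.30 for Sorl1. Markers of hippocampal subfields shifted too, with a median difference of 0.20 by day and -0.18 for night against day in DKO. Limma called 0 of 10 in either comparison, with 5 and 4 at an unadjusted p under 0.05. Their summed levels were 129 to 159 FPKM in Day WT, 143 to 176 in Day DKO, 142 to 155 in Night WT and 135 to 140 in Night DKO, so the 2 day groups overlapped. Other lists whose medians differed from that of all genes by day were those of mural cells and fibroblasts (median -0.61, 10 of 10 below 0), blood (-0.39, 5 of 5 below 0), endothelial cells (-0.26, 7 of 8 below 0), oligodendrocytes (-0.18, 9 of 9 below 0), microglia (0.28, 10 of 10 above 0) and astrocytes (0.16, 8 of 9 above 0). In that order limma called 3, 1, 0, 0, 1 and 0, with 8, 4, 7, 1, 8 and 5 at an unadjusted p under 0.05. The part of these cells in the levels of Cx3cl1, Sorl1 and Cdh2 was not tested.

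**Figure D5:**
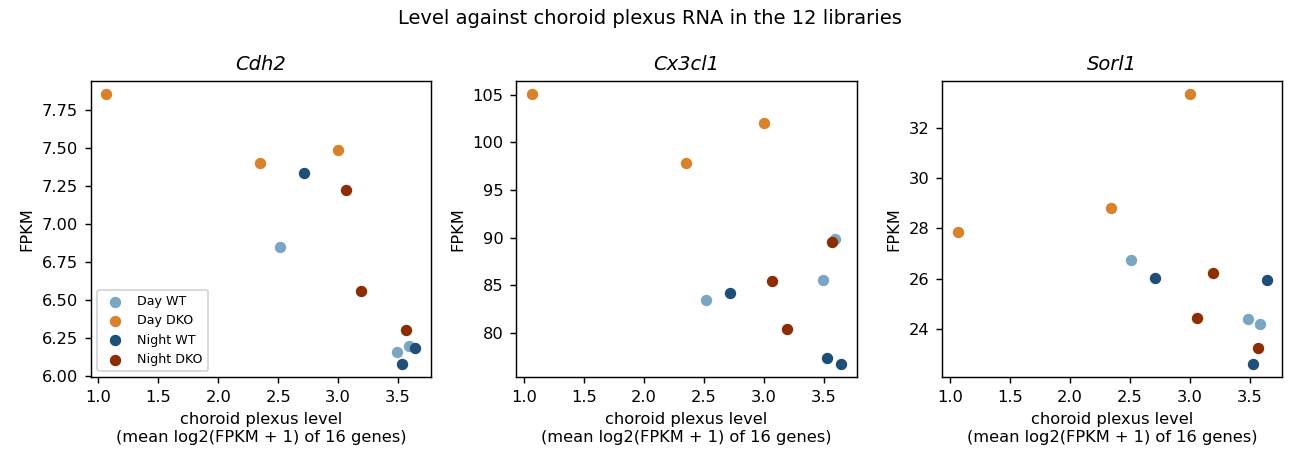
Level of Cdh2, Cx3cl1 and Sorl1 in FPKM (vertical axes do not start at 0) against the choroid plexus level, the mean log2(FPKM + 1) of 16 marker genes, in the 12 libraries coloured by group. Cdh2 falls along the choroid plexus level (r = -0.83), Cx3cl1 and Sorl1 less so (r = -0.64 and -0.49), and Day DKO replicate 2 is the point farthest left.

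The promoters of Cx3cl1, Sorl1 and Lrp1 are shown because these were the genes with the lowest adjusted p for night against day averaged over genotype. The sequences are the 250 bases before the annotated start in RefSeq on GRCm38.p6, on the strand of the gene, whose table held 6 of the 9 genes. Capitals mark matches on either strand to the GC box GGGCGG, bound by Sp1, and to the E-box CACGTG, bound by clock factors. They are chr8:94771930-94772179 (plus strand) for Cx3cl1, chr9:42124298-42124547 (minus strand) for Sorl1 and chr10:127621149-127621398 (minus strand) for Lrp1.
Cx3cl1: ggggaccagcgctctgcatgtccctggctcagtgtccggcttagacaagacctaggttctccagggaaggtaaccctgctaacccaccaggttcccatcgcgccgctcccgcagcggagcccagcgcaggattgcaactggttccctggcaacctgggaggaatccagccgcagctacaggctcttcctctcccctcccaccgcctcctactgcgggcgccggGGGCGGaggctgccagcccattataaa
Sorl1: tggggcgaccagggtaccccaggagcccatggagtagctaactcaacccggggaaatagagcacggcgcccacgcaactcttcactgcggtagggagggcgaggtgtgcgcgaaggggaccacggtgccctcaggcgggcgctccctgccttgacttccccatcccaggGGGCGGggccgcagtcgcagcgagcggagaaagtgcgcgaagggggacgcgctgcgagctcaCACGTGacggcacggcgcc
Lrp1: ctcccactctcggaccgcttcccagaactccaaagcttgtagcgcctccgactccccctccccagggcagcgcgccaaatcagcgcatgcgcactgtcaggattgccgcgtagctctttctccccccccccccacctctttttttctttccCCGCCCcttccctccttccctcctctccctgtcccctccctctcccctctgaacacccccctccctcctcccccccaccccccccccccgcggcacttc
A GC box was present in each, at -27 in Cx3cl1, -81 in Sorl1 and -99 in Lrp1, counted from the base before the start as -1 to the first base of the match in the printed strand. Of the 32851 RefSeq promoters of this length, 32.7% hold a GC box. The E-box was found in Sorl1 only, at -19, and 6.02% of promoters hold one. The D-box TTATGNAA (3.07% of promoters), the ROR element TNGGTCA (9.19%), the cyclic AMP response element TGACGTCA (1.55%) and the NF-kappaB site (7.25%) had no match in the 3 sequences, and no match overlapped one of another motif. A match describes letters in the window and no binding was measured.

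The machinery that acts on all of these substrates was examined from lists of genes. Of the 7 gamma-secretase subunit genes only Psen2 was called, lower in DKO by day and at night, while Ncstn, the substrate-gating subunit, differed by -0.14 by day (adjusted p = 0.384, limma). Adam10 and Adam17, the main sheddases of these substrates, were not called in any comparison. Adam10 ranged from 10.6 to 12.2 FPKM over the 12 libraries. Of 18 tested sheddases, their tetraspanin or rhomboid partners and inhibitors, 3 were called in at least 1 comparison. Averaged over genotype 1 of the 18 rose at night and 1 fell, where 6.07% of all genes tested were called. Within WT 1 rose at night and 1 fell (1.67% of all genes called), and within DKO 1 rose and 0 fell (0.299%). For genotype averaged over time 1 was higher and 1 lower in DKO (1.88%). No share of all genes called in at least 1 comparison is given.

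Timp3, a secreted inhibitor of metalloproteases and of Adam17, was the strongest of these called genes. It was at 15.9 ± 1.87 FPKM in Day WT and 22.1 ± 1.81 in Night WT, and at 12.6 ± 0.704 in Day DKO and 18.5 ± 1.04 in Night DKO (SD, n = 3). It rose at night by 0.45 in WT (adjusted p = 0.0339), by 0.52 in DKO (adjusted p = 0.0179) and by 0.49 averaged over genotype (adjusted p = 0.00133, limma). It fell in DKO by 0.28 averaged over time (adjusted p = 0.0322), a call kept in 10 of 20 alternatives and lost with the choroid plexus covariate. In the same comparison the mural cell and fibroblast markers had a median of -0.56, with 10 of 10 below 0 and 5 called. The choroid plexus markers had a median of -0.52, with 16 of 16 below 0 (0 called, 0 at an unadjusted p under 0.05). The part of the mural cells and fibroblasts in the level of Timp3 was not tested. Mmp14, a membrane-anchored metalloprotease, moved the other way with time, from 3.52 ± 0.406 FPKM in Day WT to 2.45 ± 0.238 in Night WT and from 2.96 ± 0.366 in Day DKO to 2.06 ± 0.0902 in Night DKO (SD, n = 3). Its difference was -0.38 averaged over genotype (adjusted p = 0.00728) and -0.39 in WT (adjusted p = 0.0452, limma). The averaged time calls of Timp3 and Mmp14 held in all 20 alternatives. Within WT the time calls held in 12 of 21 for Timp3 and 9 of 21 for Mmp14, and within DKO in 14 of 21 for Timp3. Both calls within WT were lost when any 1 Night WT library was left out, including replicate 1, which differs in sex. Over all genes tested, the count for time in WT then fell from 212 to 1. The call of Timp3 within DKO was lost with the choroid plexus covariate, which left 15 calls over all genes tested in place of 38. Choroid plexus markers had a median of 0.97 in that comparison, with 16 of 16 above 0. Adam15 rose in DKO by 0.21 averaged over time (adjusted p = 0.0468, limma), kept in 8 of 20.

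A wider list held 36 other published substrates, 34 of them tested. Within either time or either genotype limma called 0 of them, with 3 to 7 at an unadjusted p under 0.05, and it called 1 in each averaged comparison. Csf1r, a microglial growth factor receptor, rose in DKO by 0.25 (adjusted p = 0.0355), beside the microglial marker list to which it also belongs. Lrp8, a receptor for reelin and a relative of Lrp1, fell at night by 0.16 (adjusted p = 0.0484, limma). Each was called in 7 of 20 alternatives. Of all genes tested, 1.88% were called for genotype averaged over time and 6.07% for time averaged over genotype. The list's median by day was -0.01, beside 0.04 over all genes tested.

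Finally, the genes most like each substrate over the 12 libraries were listed by Pearson r of log2(FPKM + 1) among 10807 genes, as a description with no test. Cx3cl1 was closest to Inf2 and Fam212b (r = 0.92 for each), and Sorl1 to Enc1 (r = 0.93). Epha4 was closest to Nefl (r = 0.94) and Dock9 (r = 0.93), Lrp1 to Cbll1 (r = 0.91), and Cdh2 to Gab2 (r = 0.92) and Ptk2 (r = 0.91). Lower values held for Erbb4 with Kcns1 (r = 0.86) and Myo16 (r = 0.85), for Efnb2 with Adrb1 (r = 0.88) and Zfp365 (r = 0.85) and for Dcc with Magee2 (r = 0.83) and Pdcd11 (r = 0.75). Nrg1 was closest to Rims3 (r = 0.93) and Pcdh11x (r = 0.88). Among the 9 genes themselves the highest were Cdh2 with Sorl1 and with Cx3cl1 (r = 0.71 for each), Epha4 with Sorl1 (r = 0.70) and the receptor Erbb4 with its ligand Nrg1 (r = 0.64), and the lowest was Lrp1 with Erbb4 (r = -0.63). All these values share libraries, so depth and tissue makeup enter every pair.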

How the data were processed

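RNA from mouse hippocampus was sequenced in 12 libraries, prepared stranded from total RNA after ribosomal RNA removal per the labels' protocols. The authors deposited 1 table of FPKM per library, with GRCm38.p6 named in the submitters' processing notes. Aligner, quantifier and read number were not given in the sources used here, and the unit was taken from the values. Gene symbols turned into dates (27) were restored.

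The test was limma 3.58.1 in R 4.3.3 on log2(FPKM + 1), with 1 mean per group, all 12 libraries and eBayes trend, over 12689 genes with at least 0.5 FPKM in at least 3 libraries. It was run on simulated data with independent noise for each gene. That simulation held no shifts shared by many genes of a library, such as those of tissue makeup. All 9 substrates were named in every comparison, and from each list up to 5 called genes with the smallest p. Some items that these rules name are not reported here. The substrates and lists were chosen with earlier results of these data known. Not every same-numbered pair of libraries deviated together, so the fit has no replicate block. Alternatives were pseudocount, filter, scaling, weights, block, choroid plexus covariate, fewer groups and each library left out.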

Additional observations from a re-analysis of the deposited data

How the results depend on the processing

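Under the 22 settings run (21 for the averaged comparisons), 1289 differences of the 9 genes were recomputed. Of these, 48 changed sign, none of them called in either fit and none larger than 0.06 after the change. The number of the 9 genes called moved as follows. Quantile normalization gave 1 for night against day in WT (Cx3cl1, -0.24, adjusted p = 0.0466, limma). Median-of-ratios scaling and quantile normalization each gave 1 for night against day in DKO (Cx3cl1, -0.29 and -0.30), and each gave 2 for night against day averaged over genotype (Cx3cl1 and Lrp1). The choroid plexus covariate gave 0 for the averaged time difference, and leaving out 1 library at a time gave 0 to 1. In the remaining comparisons the count stayed at 0 in every setting.

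The replicate numbers were shared by the groups, and nothing in the labels ties a number to a shared batch or litter. Same-numbered libraries had r over 0.1 in 7 of 18 pairs (range -0.116 to 0.247), against 4 of 36 pairs with other numbers (range -0.204 to 0.220). Not every pair passed 0.1, nor did every library correlate best with its own number, so the numbers were not taken to pair the libraries. That rule asks for every pair to pass, so a weaker sharing between same-numbered libraries would miss it. With the replicate block Cx3cl1 differed by -0.19 with an adjusted p of 0.0283 (limma), and no call among the 9 genes changed. Over all genes the block gave 178 calls in place of 150 by day and 844 in place of 770 for the averaged time difference.

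Counts over all genes moved more: from 4 to 205 by day (150 as reported), 2 to 38 at night (3), 1 to 418 for time in WT (212), 15 to 65 for time in DKO (38), 0 to 1 for the interaction (0), 24 to 339 for genotype averaged over time (238) and 243 to 894 for time averaged over genotype (770). For the latter, 659 genes were higher and 111 lower at night as reported, 206 and 284 with median-of-ratios scaling, and 231 and 345 with quantile normalization. By day the split was 101 higher and 49 lower, 66 and 65, and 51 and 45 in the same order. The lowest count by day, 4, came with the choroid plexus covariate. The highest count at night, 38, came without Night DKO replicate 1, with 33 of these genes higher in DKO. The cause of these shifts was not tested. With 3 libraries a group and no read counts, counting error could not be separated from other spread, and Nrg1, near the filter, was measured least precisely.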
